A study of Arabidopsis thaliana with 12 samples.

Results

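OSM34, ATLP-1, PR-1-LIKE and PDF1.2, 4 genes for secreted defence proteins of Arabidopsis thaliana, were followed as petals, cotyledons and roots turned into callus. Their loci are AT4G11650 (OSM34), AT1G18250 (ATLP-1), AT2G19990 (PR-1-LIKE) and AT5G44420 (PDF1.2). The genes were chosen by symbol and locus in the probe-to-gene table, with their ratios in these data already known. Each has 1 probe, so they are 4 of the 13745 genes with a named probe and 4 of the 9694 genes tested. The values that chose them were their own callus-to-explant ratios, which are therefore given as a description with no test.

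The arrays compared callus, grown from an explant for 10 days on callus-inducing medium (CIM), which is rich in auxin, with untreated day-0 explants of that organ. All plants were of the ecotype Ler. There were 3 organs with 4 arrays each, labelled as biological replicates. Each array carried both RNAs in 2 dyes, with callus in Cy5 on replicates 1 and 3 and in Cy3 on replicates 2 and 4. The labels do not say how many explants or plants went into a sample.

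Every value below is a log2 ratio of callus over explant within 1 array, so it is a difference and not a level. A ratio of 1 is a 2-fold higher signal in callus. This direction is the likely one and is not stated by the labels, in which callus is channel 1 and the untreated explant is called the control. Arrays of opposite dye from the same organ correlated across 8973 genes with r of 0.85 to 0.92 in petal, 0.86 to 0.91 in cotyledon and 0.79 to 0.85 in root, so the deposited ratios had been turned to 1 direction. RNA came from whole explants and whole callus, so fewer cells of a type and less RNA per cell cannot be told apart.

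Ratios at the 100-fold limit of the table took 2.00% to 28.2% of probes on petal arrays, 1.99% to 19.3% on cotyledon arrays and 7.40% to 22.4% on root arrays. None of the 4 genes was at a limit on any of the 12 arrays. All 6 tested genes of the leaf photosynthesis list were lower in petal callus (-4.60 to -1.93), in cotyledon callus (-4.44 to -1.87) and in root callus (-3.60 to -0.90), as fitted ratios. Ratios also differed by dye for RCA, SBPASE, LHB1B2 and PSBY (limma adjusted p of the dye term 0.0145 to 0.0375), as in 3.62% of all genes. The cotyledon arrays of PSBY ranged from -3.45 to 0.14. Of the callus marker list, LBD16 and BBM were higher in petal callus (3.27 and 3.67) and cotyledon callus (3.47 and 3.18), and in root BBM was higher (2.66) and LBD16 did not pass (0.66). Of the root hair genes, EXPA7 rose to 1.72 in petal and 1.75 in cotyledon and stood at -0.25 in root, with a petal ratio 1.97 above the root ratio (limma adjusted p = 0.000358). EXPA18 stood at 0.71 in petal, -0.61 in cotyledon and 0.57 in root, and neither gene passed in root at an unadjusted p. The part of these markers in the results below was not tested. Petal identity genes were not analysed here. The median over all genes tested was 0.18 in petal, 0.13 in cotyledon and 0.18 in root.

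Pathogenesis-related (PR) proteins are families of mostly secreted plant proteins that accumulate after infection, and many are also made in particular organs without any pathogen. Osmotins and thaumatin-like proteins form family PR-5, named after the sweet protein thaumatin. Osmotin was first described in tobacco cells adapted to salt. Proteins of the PR-1 type share a secreted domain, and the gene PR1 itself is the usual marker of salicylate signalling in leaves. Plant defensins are small antifungal peptides, and PDF1.2 is the usual marker of joint jasmonate and ethylene signalling.

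**Figure D1:**
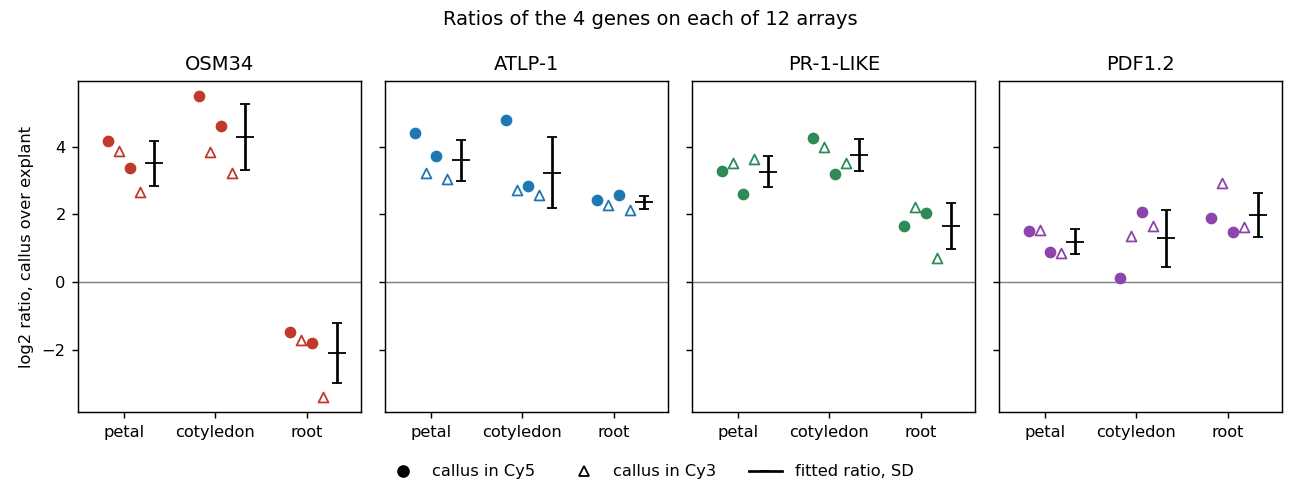
Log2 ratios of callus over explant (vertical axis) for OSM34, ATLP-1, PR-1-LIKE and PDF1.2 in petal, cotyledon and root (horizontal axis). Each symbol is 1 array, filled circles have callus in Cy5 and open triangles have callus in Cy3, and the bar is the fitted ratio with its SD (n = 4). OSM34 lies between 2.66 and 5.49 in petal and cotyledon and between -3.41 and -1.47 in root, while the other 3 genes lie above 0 on every array.

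OSM34, the osmotin-like gene, was higher in callus than in the explant in petal and cotyledon and lower in root. On the petal arrays its ratio was 4.16, 3.87, 3.35 and 2.66 in replicates 1 to 4. On the cotyledon arrays it was 5.49, 3.83, 4.60 and 3.21. On the root arrays it was -1.47, -1.73, -1.81 and -3.41. All 8 petal and cotyledon arrays were above 0 and all 4 root arrays below 0, with no overlap between root and either other organ. The fitted ratio was 3.51 ± 0.66 in petal (SD, n = 4), or 11.4-fold higher in callus. In cotyledon it was 4.28 ± 0.99, or 19.5-fold higher, and in root it was -2.10 ± 0.88, or 4.30-fold lower.

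The distance between organs was wide for OSM34. The petal ratio exceeded the root ratio by 5.61, with 4.12 between the lowest petal and the highest root array. The cotyledon ratio exceeded the root ratio by 6.39, with 4.67 between the nearest arrays. Petal and cotyledon arrays overlapped, so the order of these organs is not resolved beyond their spread. Arrays of petal and root did not overlap in 52.3% of the 8973 genes measured on all 12 arrays, and those of cotyledon and root in 52.9%. The sign pattern of OSM34, above 0 on every petal and cotyledon array and below 0 on every root array, was shared by 2.85% of those genes.

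ATLP-1, a thaumatin-like gene of the same PR-5 family as OSM34, was higher in callus on every array. Its ratio was 4.39, 3.22, 3.73 and 3.05 in petal replicates 1 to 4. It was 4.78, 2.73, 2.84 and 2.57 in cotyledon. It was 2.43, 2.28, 2.58 and 2.13 in root. The root arrays lay close together and below all petal arrays, whereas the lowest cotyledon array lay just under the highest root array. The fitted ratio was 3.60 ± 0.60 in petal (12.1-fold), 3.23 ± 1.04 in cotyledon (9.37-fold) and 2.35 ± 0.19 in root (5.11-fold). The petal ratio exceeded the root ratio by 1.24, with 0.47 between the nearest arrays.

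One cotyledon array stood apart for ATLP-1. Cotyledon replicate 1 gave 4.78, and the other 3 arrays lay between 2.57 and 2.84. Without that array the cotyledon ratio was 2.79. The same array gave the highest cotyledon ratio of OSM34 (5.49) and of PR-1-LIKE (4.25), and the lowest of PDF1.2 (0.11). The spread of log2 ratios across all genes on it was an SD of 1.51, against 1.41 to 1.44 on the other cotyledon arrays, and its part in these values was not tested.

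PR-1-LIKE, a relative of the salicylate marker PR1, was also higher in callus on all arrays. In petal its ratio was 3.28, 3.53, 2.61 and 3.62 in replicates 1 to 4. In cotyledon it was 4.25, 4.00, 3.20 and 3.53. In root it was 1.64, 2.23, 2.04 and 0.71. The root arrays lay below all arrays of the other organs, and petal and cotyledon arrays overlapped. The fitted ratio was 3.26 ± 0.46 in petal (9.59-fold), 3.74 ± 0.47 in cotyledon (13.4-fold) and 1.66 ± 0.68 in root (3.15-fold). The petal ratio exceeded the root ratio by 1.61, with 0.39 between the nearest arrays, and the cotyledon ratio exceeded it by 2.09, with 0.97 between them.

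PDF1.2, the defensin gene, had the smallest ratios of the 4 genes in petal and cotyledon. Its petal ratio was 1.49, 1.55, 0.89 and 0.85 in replicates 1 to 4. Its cotyledon ratio was 0.11, 1.35, 2.07 and 1.65. Its root ratio was 1.90, 2.93, 1.49 and 1.61. All 12 arrays were above 0, and the arrays of the 3 organs overlapped in every pair, so no order of organs is resolved. The fitted ratio was 1.19 ± 0.38 in petal (2.29-fold), 1.29 ± 0.85 in cotyledon (2.45-fold) and 1.98 ± 0.66 in root (3.96-fold). When every array was centred on its own overall median, limited values included, the petal ratio of PDF1.2 was 1.62.

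Across the 4 genes, OSM34 was the one that changed sign between organs, and ATLP-1, PR-1-LIKE and PDF1.2 were above 0 on all 12 arrays, as were 25.8% of the 8973 genes. Among the 9694 genes tested OSM34 ranked 129 from the top in petal, 5 in cotyledon and 9326 in root. ATLP-1 kept nearly the same place in each organ, at rank 103 in petal, 98 in cotyledon and 92 in root, although its ratio was smaller in root, where the SD of all ratios on an array was 0.91 to 1.31, against 1.57 to 1.95 in petal and 1.41 to 1.51 in cotyledon. PR-1-LIKE ranked 223 in petal, 31 in cotyledon and 288 in root. PDF1.2 ranked 2548 in petal, 1703 in cotyledon and 163 in root, so its place was highest in root. These ranks rest on the likely direction, and with all ratios turned OSM34 would rank 9566 in petal, 9690 in cotyledon and 369 in root, with the other genes' ranks likewise counted from the other end.

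**Figure D2:**
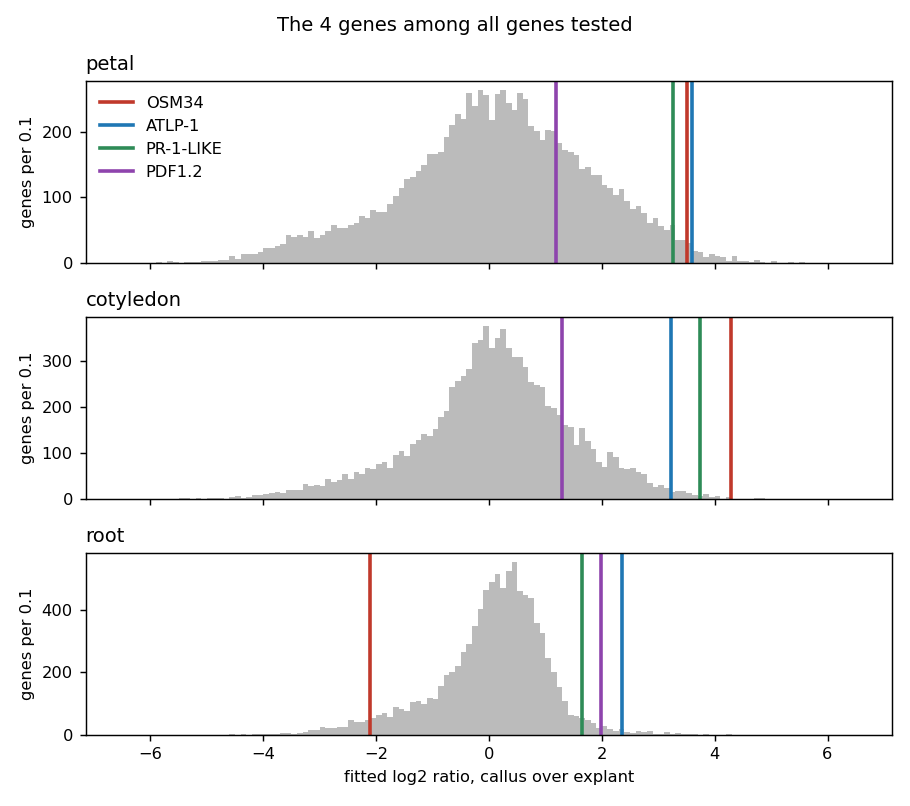
Histograms of the fitted log2 ratio of callus over explant (horizontal axis) for all 9694 genes tested, as genes per 0.1 (vertical axis), in petal, cotyledon and root. Coloured lines mark the 4 genes. OSM34 lies in the right tail in petal (3.51) and cotyledon (4.28) and on the left in root (-2.10), and PDF1.2 moves outward in root (1.98), where the distribution is narrower.

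The ratios are next given by dye. OSM34 averaged 3.76 with callus in Cy5 and 3.26 with callus in Cy3 in petal, 5.05 and 3.52 in cotyledon, and -1.64 and -2.57 in root. ATLP-1 was likewise higher with callus in Cy5 in the 3 organs, by 0.93 in petal, 1.17 in cotyledon and 0.30 in root. The dye term of the limma fit, added with callus in Cy5 and subtracted with callus in Cy3, was 0.49 ± 0.18 (SE) for OSM34 and 0.40 ± 0.15 for ATLP-1, and it did not pass the test for either (limma adjusted p = 0.148 and 0.160). It was -0.05 ± 0.15 for PR-1-LIKE and -0.17 ± 0.17 for PDF1.2 (limma adjusted p = 0.880 and 0.614). Of all genes tested, 3.62% passed for the dye term.

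The genes with the most similar ratios were found by the root mean square difference in log2 ratio over the 12 arrays, among 8973 genes measured on all of them, of which 1085 had a symbol. For ATLP-1 the nearest gene of all was BBM, an AP2-type transcription factor of embryo and root meristem development, at a difference of 0.25. BBM had fitted ratios of 3.67 in petal, 3.18 in cotyledon and 2.66 in root. Next with a symbol came IAA30, an Aux/IAA protein of auxin signalling, at 0.41, and EME1A at 0.62.

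For PDF1.2 the nearest gene of all was its paralog PDF1.2c, at 0.41, followed among genes with a symbol by SOL1 at 0.60 and PDF1.3 at 0.65. For PR-1-LIKE the nearest of all was at 0.47 and known by a locus code alone, and the nearest with a symbol were BUB3.2, of the spindle checkpoint family BUB3, at 0.67, ZCF125 at 0.68 and EME1A at 0.72. For OSM34, 16 genes known by a locus code alone were nearer than any gene with a symbol, the nearest at 0.74. Its nearest with a symbol were VPS2.2 at 1.32, the jacalin-related lectin gene JAL22 at 1.34 and NAI1, a bHLH factor needed for ER bodies, at 1.36. VPS2.2 stood at 2.76 in petal, 2.46 in cotyledon and -1.54 in root. Between the members themselves, ATLP-1 and PR-1-LIKE were closest (0.86), and OSM34 and PDF1.2 farthest apart (3.36). These differences describe the 12 arrays and share their dyes and organs.

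Relatives of the 4 genes were taken from 7 lists of 141 loci in all, of which 60 had a named probe in the table used here and 44 passed the filter and were tested. The families of loci known only by a code come from general knowledge of the genome, since the tables used here hold no description of them. PR1, PR2, PR3, PR4 and PR5 were not analysed here. Across the 44, 30 changed in petal callus (17 higher and 13 lower), 29 in cotyledon callus (16 and 13) and 28 in root callus (16 and 12), by limma with an adjusted p under 0.05. That is 68.2%, 65.9% and 63.6% of them, against 78.6%, 71.0% and 62.8% of all genes tested in petal, cotyledon and root. Their medians were -0.14 in petal, -0.03 in cotyledon and 0.01 in root. Without root replicate 3 the count higher in root was 10.

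The organs were also compared directly. Petal and root ratios differed in 25 relatives (13 higher and 12 lower in petal), against 60.1% of all genes (33.4% and 26.7%). Cotyledon and root ratios differed in 23 relatives (12 and 11), against 53.9% of all genes (27.0% and 26.9%). Petal and cotyledon ratios differed in 16 relatives (9 and 7), against 49.5% of all genes (30.8% and 18.8%). These are 56.8%, 52.3% and 36.4% of the 44. Relatives called higher in all 3 organs numbered 10, or 22.7%, against 23.0% of all genes, and those called lower in all 3 numbered 3, or 6.82%, against 11.0%.

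**Figure D3:**
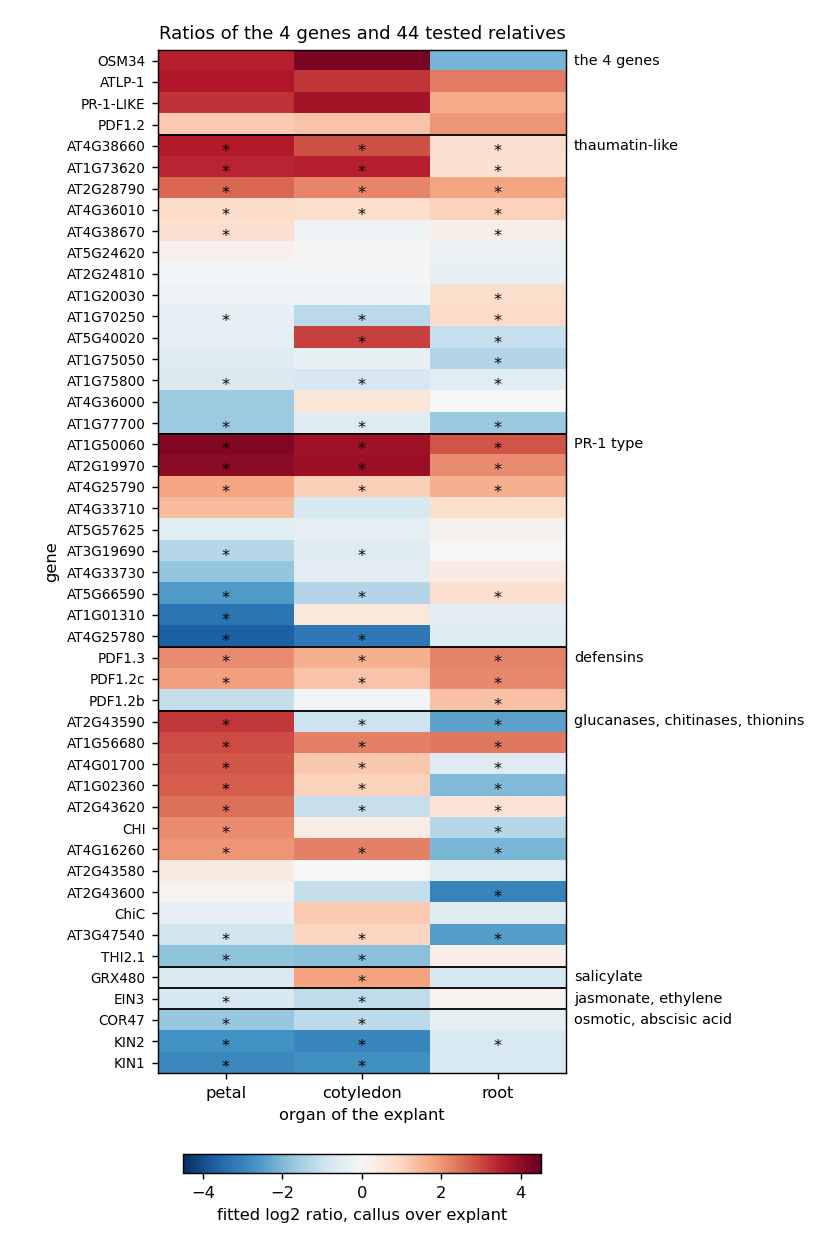
Fitted log2 ratios of callus over explant (colour, red above 0 and blue below) for the 4 genes and the 44 tested relatives (rows, grouped by list) in petal, cotyledon and root (columns). A star marks a relative that passed limma with an adjusted p under 0.05, and the 4 genes carry no star because they were not tested. In the list of glucanases, chitinases and thionins 7 of 12 genes rose in petal and 7 of 12 fell in root. Of all genes tested, 45.2% rose in petal and 23.0% fell in root.

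The thaumatin-like list, the family of OSM34 and ATLP-1, had 14 tested relatives. In petal 5 rose and 3 fell, in cotyledon 5 rose and 3 fell, and in root 7 rose and 4 fell, with list medians of -0.14 in petal, -0.00251 in cotyledon and 0.14 in root. By direction, 45.2% of all genes were higher and 33.4% lower in petal, 40.7% and 30.3% in cotyledon, and 39.9% and 23.0% in root. AT4G38660 rose to 3.58 ± 0.75 in petal and 2.87 ± 0.69 in cotyledon, and AT1G73620 to 3.43 ± 0.34 and 3.48 ± 0.75. In root these 2 genes were also called higher, at 0.74 ± 0.32 and 0.67 ± 0.54 (limma adjusted p = 0.00504 and 0.0420). Centring each array on its overall median, both root calls were lost (0.67 and 0.60, limma adjusted p = 0.0902 and 0.172). The root ratios of both genes were smaller than those in petal and cotyledon. The differences were 2.84 and 2.13 for AT4G38660 and 2.76 and 2.81 for AT1G73620 (limma adjusted p of the differences 0.000112 or less).

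AT2G28790 rose in all 3 organs, to 2.57 ± 1.04 in petal, 2.20 ± 1.24 in cotyledon and 1.79 ± 0.68 in root. The dye term passed for this gene (0.78, limma adjusted p = 0.0145). Its petal arrays were at 3.85 and 2.96 with callus in Cy5 and at 1.93 and 1.53 with callus in Cy3. Its cotyledon arrays were at 3.77 and 2.61, and at 1.17 and 1.24. AT1G77700 fell to -1.62 ± 0.63 in petal, -0.53 ± 0.55 in cotyledon and -1.67 ± 0.20 in root. AT1G70250 fell to -0.37 ± 0.18 in petal and -1.20 ± 0.36 in cotyledon and rose to 0.86 ± 0.28 in root, a sign pattern opposite to that of OSM34. None of the 14 was called higher in petal and cotyledon and lower in root, the pattern of OSM34, which 2.48% of all genes showed, and none was at an unadjusted p under 0.05. AT5G40020, named after its values were seen, rose to 3.08 ± 0.65 in cotyledon and fell to -1.04 ± 0.48 in root. Its cotyledon ratio exceeded its root ratio by 4.12 (limma adjusted p = 4.4e-06), and it did not pass in petal (-0.42 ± 0.40). The root call of AT1G73620 was lost without root replicate 2 (0.43, limma adjusted p = 0.219), 3 (0.57, 0.146) or 4 (0.76, 0.0663), and also without cotyledon replicate 2 or any 1 petal array (0.67, up to 0.0542); over all alternatives the adjusted p was 0.0152 to 0.219. The cotyledon call of AT1G77700 was lost without cotyledon replicate 1 (-0.54, 0.0895), 3 (-0.37, 0.197) or 4 (-0.53, 0.0949), petal replicate 3 (-0.53, 0.0514) or root replicate 1 (-0.53, 0.0521), and the petal call of AT1G70250 without any 1 petal array (-0.42 to -0.25, up to 0.183).

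The PR-1 type list, the family of PR-1-LIKE, had 10 tested relatives and went both ways. In petal 3 rose and 4 fell, in cotyledon 3 rose and 3 fell, and in root 4 rose and 0 fell by limma, and 0 were lower in root at an unadjusted p under 0.05 as well. Of all genes, 45.2% were higher and 33.4% lower in petal, 40.7% and 30.3% in cotyledon, and 39.9% and 23.0% in root. The list medians were -0.88, -0.44 and 0.55. AT1G50060 rose in all 3 organs, to 4.16 ± 1.08 in petal, 3.82 ± 0.84 in cotyledon and 2.85 ± 0.88 in root. AT2G19970 rose to 4.07 ± 0.43 in petal, 3.85 ± 0.73 in cotyledon and 2.14 ± 0.46 in root.

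AT2G19970 is separated from PR-1-LIKE by a single gene in the RefSeq gene order, and it was the relative with ratios nearest to those of PR-1-LIKE, at a root mean square difference of 0.67. Among 8972 genes it ranked 13 in nearness to PR-1-LIKE. The gene between AT2G19970 and PR-1-LIKE, AT2G19980, was measured on 1 petal, 2 cotyledon and 0 root arrays and was not tested. In the other direction, AT4G25780 fell to -3.66 ± 1.08 in petal and -3.23 ± 0.18 in cotyledon, and stood at -0.59 ± 0.47 in root (limma adjusted p = 0.0826). AT5G66590 fell to -2.56 ± 1.21 in petal and -1.34 ± 0.46 in cotyledon and rose to 0.74 ± 0.23 in root. Its root call was lost without any 1 of the root arrays (0.64 to 0.88, limma adjusted p from 0.0576 to 0.156), without cotyledon replicate 1 or 4 or petal replicate 1 or 4 (0.74, 0.0587 to 0.0626).

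The defensin list, the family of PDF1.2, had 3 tested relatives. PDF1.3 rose in all 3 organs, to 2.13 ± 0.55 in petal, 1.61 ± 0.76 in cotyledon and 2.25 ± 0.33 in root. PDF1.2c, the neighbour of PDF1.2 in the gene order, rose to 1.84 ± 0.45, 1.28 ± 0.94 and 2.17 ± 0.51 in these organs. On cotyledon replicate 1, the array on which PDF1.2 was lowest, PDF1.2c was at 0.01 and PDF1.3 at 0.59, the lowest cotyledon value of each. PDF1.2b stood at -1.06 ± 1.15 in petal and -0.13 ± 1.62 in cotyledon and rose to 1.33 ± 0.62 in root.

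The petal ratio of PDF1.2b lay 2.39 below its root ratio (limma adjusted p = 0.0135). PDF1.2, PDF1.2b and PDF1.2c are close paralogs, so their probes may share signal and their separate ratios are uncertain. Whether the probe of PDF1.3 shares signal with them was not tested. The root call of PDF1.2b was lost without root replicate 1 (0.99, limma adjusted p = 0.171), 3 (1.10, 0.145) or 4 (1.36, 0.0860) or cotyledon replicate 2 (1.33, 0.0505); over all alternatives the adjusted p was 0.0125 to 0.171.

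**Figure D4:**
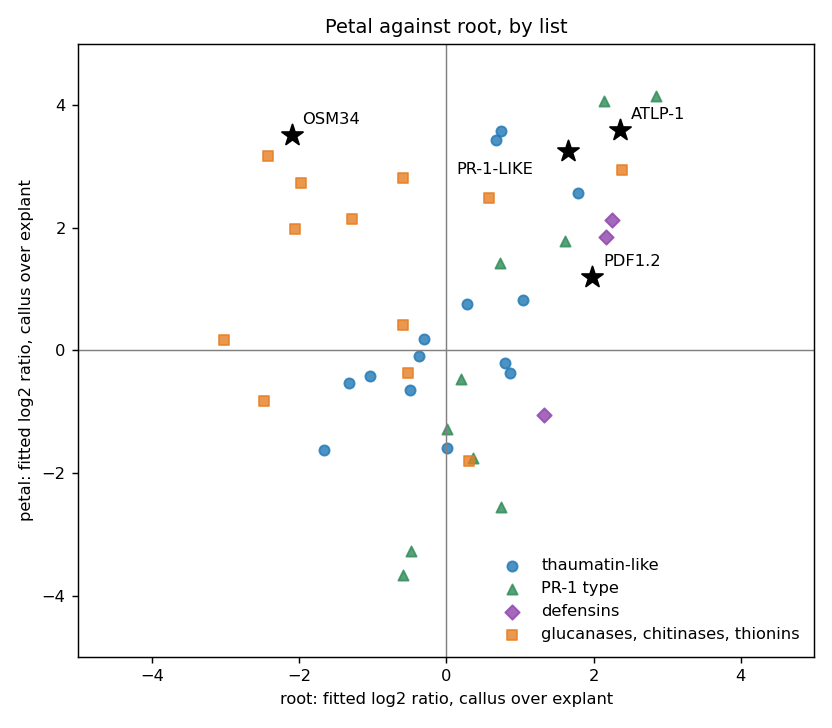
Fitted log2 ratios of callus over explant in petal (vertical axis) and root (horizontal axis) for OSM34, ATLP-1, PR-1-LIKE and PDF1.2 (black stars) and the tested relatives of 4 lists (symbols by list). OSM34 lies at 3.51 in petal and -2.10 in root, in the upper left quadrant together with genes of the list of glucanases, chitinases and thionins.

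The list of other PR families holds glucanases and chitinases, enzymes that cut fungal cell walls, and thionins, small peptides that act on membranes. It had 12 tested genes. In petal 7 rose and 2 fell, in cotyledon 5 rose and 3 fell, and in root 2 rose and 7 fell, with medians of 2.06, 0.66 and -0.94. The shares of all genes were 45.2% higher and 33.4% lower in petal, 40.7% and 30.3% in cotyledon, and 39.9% and 23.0% in root. Of the 12, 5 genes, or 41.7%, were called higher in petal and lower in root, against 4.06% of all genes tested. The lists were chosen with earlier results of these data known, so this share is a description and not a test. The largest of the 5 genes in petal was AT2G43590 at 3.16 ± 0.34, which fell to -0.92 ± 1.07 in cotyledon and -2.43 ± 0.21 in root. Its petal ratio exceeded its root ratio by 5.59 (limma adjusted p = 4.37e-06).

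The other 4, named after their values were seen, were AT4G16260, AT1G02360, AT4G01700 and the chitinase gene CHI (AT2G43570). CHI and AT2G43590 are separated by a single gene of this list in the RefSeq gene order. Whether their probes share signal was not tested. AT4G16260 had petal ratios of 2.35, 1.76, 2.09 and 1.72, cotyledon ratios of 3.10, 1.81, 2.20 and 2.01, and root ratios of -1.78, -1.97, -2.30 and -2.16. Its ratios were the nearest to those of OSM34 among the 39 relatives measured on all 12 arrays, at a root mean square difference of 1.56. Among 8972 genes it ranked 46 in nearness to OSM34. It had the sign of OSM34 on each of the 12 arrays, a pattern shown by 2.85% of the genes measured on all of them. AT1G02360 stood at 2.74 ± 0.09 in petal, 1.03 ± 1.15 in cotyledon and -1.97 ± 0.46 in root, and AT4G01700 at 2.81 ± 0.50 in petal and -0.60 ± 0.30 in root, with a 2.29-fold rise in cotyledon. CHI rose to 2.14 ± 0.06 in petal, was at 0.35 ± 0.54 in cotyledon and fell to -1.29 ± 0.59 in root. AT4G16260, AT1G02360 and AT4G01700 were the 3 relatives of the 44, or 6.82%, called higher in petal and cotyledon and lower in root. Of all genes tested, 2.48% were called so. AT1G02360 had a cotyledon array below 0 (-0.57), unlike OSM34, and its cotyledon call had a limma adjusted p of 0.0179. The calls of genes named after their values were seen were not followed gene by gene under the alternatives.

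Other genes of this list went elsewhere. AT1G56680 rose in all 3 organs, to 2.94 ± 0.68 in petal, 2.28 ± 0.70 in cotyledon and 2.38 ± 0.33 in root. AT2G43600 fell to -3.02 ± 0.79 in root, the lowest value of the list there, and stood at 0.18 ± 2.01 in petal and -1.07 ± 1.63 in cotyledon. THI2.1, a thionin gene known to respond to jasmonate, fell to -1.80 ± 0.89 in petal and -1.87 ± 1.07 in cotyledon and stood at 0.31 ± 0.64 in root (n = 3 each). The cotyledon call of THI2.1 was lost without cotyledon replicate 4 (-1.05, limma adjusted p = 0.123), and that of AT2G43590 without cotyledon replicate 1 (-0.45, 0.129) or 2 (-0.84, 0.0794).

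The hormone lists held few tested genes. In the jasmonate and ethylene list this was EIN3 alone, the transcription factor that carries ethylene signals and acts upstream of PDF1.2. EIN3 fell to -0.73 ± 0.18 in petal and -1.16 ± 0.29 in cotyledon and stood at 0.15 ± 0.12 in root. In the salicylate list it was GRX480, a glutaredoxin that binds TGA factors, which rose to 1.82 ± 0.91 in cotyledon and stood at -0.63 ± 0.34 in petal and -0.71 ± 0.87 in root. Centring each array on its overall median, the petal call of EIN3 was lost (-0.31, limma adjusted p = 0.261).

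Osmotic and abscisic acid response genes were listed because osmotin takes its name from osmotic stress. The 3 tested had fitted ratios opposite in sign to those of OSM34 in petal and cotyledon. In root these were below 0, but each gene had arrays on both sides of 0, unlike OSM34. The highest root array was at 1.45 for KIN1, 1.19 for KIN2 and 0.68 for COR47. All 3 tested members fell in petal and in cotyledon, against 33.4% and 30.3% of all genes. In root KIN2 alone was called lower, against 23.0% of all genes. KIN1 and COR47 did not pass there (limma adjusted p = 0.0847 and 0.108), but each passed in some alternative fit. Over all alternatives the limma adjusted p in root was 0.000585 to 0.335 for KIN1 and 0.0423 to 0.416 for COR47. KIN1 was at -2.91 ± 0.59 in petal, -2.75 ± 0.35 in cotyledon and -0.69 ± 1.63 in root. KIN2 was at -2.72 ± 1.30, -2.93 ± 0.65 and -0.70 ± 1.56, and COR47 at -1.71 ± 1.29, -1.19 ± 0.39 and -0.43 ± 0.96. The dye term passed for KIN2 (0.95, limma adjusted p = 0.0129) and COR47 (0.74, 0.0154). The root arrays of KIN2 were at 1.19 and -0.04 with callus in Cy5, and at -2.01 and -1.94 with callus in Cy3. Its fall in root thus rested on the arrays with callus in Cy3. KIN1 and KIN2 are neighbouring close paralogs whose probes may share signal. The root call of KIN2 (limma adjusted p = 0.0419) was lost without root replicate 2, 3 or 4 (-0.59 to -0.56, up to 0.161), cotyledon replicate 2 or 3, or petal replicate 2 (-0.70, up to 0.0526), and without the dye term (0.298).

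A further 16 listed relatives had a named probe and were not tested, because too few of their arrays held a ratio inside the limits. Of these, 9 were of the PR-1 type, so the count of 0 lower in root in that list leaves them out. AT4G33720 was measured on all 4 root arrays, at -3.61 to -2.10, and on 2 arrays each of petal and cotyledon. AT4G31470, also of the PR-1 type, was measured on all 4 root arrays, at -2.94 to -0.90. AT1G50050 was measured on all 4 petal arrays, at 1.49 to 2.58, and on 2 root arrays, at -2.52 and -2.17, with the other root arrays at the lower limit. Of the 16, 3 had no measured ratio on any array. The counts above therefore cover only listed genes measured on at least 3 of 4 arrays in every organ.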

How the data were processed

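The authors deposited 1 table of log2 ratios for 12 two-colour oligonucleotide arrays. Scanner, background correction, normalization and filters were not stated, and how arrays were centred and scaled is unknown. Per the labels' protocols, RNA was amplified with T7 polymerase and coupled to dyes, which were switched between replicates. Of 26090 probes, 24926 held a value. Of 299112 values, 13.9% lay at the 100-fold limit (6.64 on the log2 scale) or beyond, and were treated as missing. Of the probes, 13960 had 1 gene and 12130 had none, and 13912 matched a locus of RefSeq's TAIR10.1 annotation. No source used here names the genome build of the probes, so no coordinates are printed. Control spots were left out.

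Genes were the mean of their probes measured on at least 3 of 4 arrays of every organ. limma 3.58.1 in R 4.3.3 fitted 1 coefficient per organ and a dye term over the 12 arrays (2-sided tests, Benjamini-Hochberg over 9694 genes), and a call was an adjusted p below 0.05. The fit was checked on simulated ratios. The number of arrays limits the precision, and no depth or signal over background was used. Relatives were named as the called gene with the highest and the lowest ratio per list and organ, with the defensins of the PDF1 type always named. The 4 genes and the lists were chosen with earlier results of these data known. Alternatives were other centrings, filters and models, ratios at the limit kept, and each array left out in turn.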

Additional observations from a re-analysis of the deposited data

Results flagged for a closer look

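A single array lay far from the other 3 of its organ in 5 of 72 groups of 4, where chance gives about 1 in 20. These were ATLP-1 in cotyledon (4.78), AT1G77700 in root (-1.37), and AT1G70250 (-0.64), AT2G43590 (3.66) and AT2G43600 (-2.80) in petal.

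OSM34 lay above 0 on every petal and cotyledon array and below 0 on every root array, with differences of 5.61 and 6.39 that were not tested.

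Named relatives differed between organs by a limma contrast (adjusted p under 0.05). The petal ratio exceeded the root ratio by 2.84 in AT4G38660, 2.76 in AT1G73620, 1.31 in AT1G50060, 1.93 in AT2G19970, 5.59 in AT2G43590 and 3.20 in AT2G43600. It lay below the root ratio in AT1G70250 (-1.23), AT4G25780 (-3.08), AT5G66590 (-3.30), PDF1.2b (-2.39), THI2.1 (-2.10), EIN3 (-0.88), COR47 (-1.28), KIN1 (-2.21) and KIN2 (-2.02). The cotyledon ratio exceeded the root ratio by 2.13 in AT4G38660, 1.14 in AT1G77700, 2.81 in AT1G73620, 1.72 in AT2G19970, 1.50 in AT2G43590 and 2.53 in GRX480. It lay below the root ratio in AT1G70250 (-2.06), AT4G25780 (-2.64), AT5G66590 (-2.07), THI2.1 (-2.18), EIN3 (-1.31), KIN1 (-2.05) and KIN2 (-2.24). The petal ratio exceeded the cotyledon ratio by 0.71 in AT4G38660, 0.83 in AT1G70250, 4.09 in AT2G43590 and 0.43 in EIN3, and lay below it in AT1G77700 (-1.09), AT5G66590 (-1.23) and GRX480 (-2.45).

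With each array centred on its overall median, the petal against root differences of AT1G70250 (-0.73, limma adjusted p = 0.0994), EIN3 (-0.39, 0.357) and COR47 (-0.78, 0.128) were lost, and without the dye term those of AT1G50060 (1.31, 0.0834) and COR47 (-1.28, 0.0955). Some of these calls depended on 1 array. The petal against cotyledon differences of AT4G38660, AT5G66590 and EIN3 were lost in several such fits, with a limma adjusted p up to 0.172, 0.119 and 0.142 over all alternatives. The THI2.1 differences against root were lost without root replicate 2 (-1.92 in petal and -1.99 in cotyledon, limma adjusted p = 0.0685 and 0.0676) or 3 (adjusted p = 0.122 and 0.119), in petal also without petal replicate 1 (-1.61, 0.0564) or 3 (-2.09, 0.0613), and in cotyledon without cotyledon replicate 4 (-1.24, 0.185).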

How the results depend on the processing

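Of 252 recomputed ratios of the 4 genes, 251 moved by less than the SD between arrays and 0 changed sign. The exception was PDF1.2 in petal, at 1.62 when each array was centred on its overall median with limited values included, a setting that moved the median of all genes by 0.42 in petal, 0.17 in cotyledon and -0.07 in root. With arrays centred on tested probes these shifts were -0.18, -0.12 and -0.16. With limited ratios kept they were -0.83, -0.46 and -0.10 over 13509 genes, which put the median below 0 in petal (-0.65) and cotyledon (-0.33). The counts of relatives and of all genes stayed within 1.5 times of those reported under every alternative, except 21 relatives lower in petal with limited ratios kept, against 13, and 10 higher in root without root replicate 3, against 16. Replicate numbers are shared across organs, but same-numbered arrays did not all deviate together (r from -0.02 to 0.30 across genes, and from -0.16 to 0.27 within a dye). Of 1932 recomputed results of named relatives, 123 lost a call, 19 gained one and 7 more changed sign. Gained calls were in root for AT4G25780 (lowest limma adjusted p 0.00591), GRX480 (0.00959), KIN1 (0.000585) and COR47 (0.0423). Others were in petal for GRX480 (0.0108) and PDF1.2b (0.0268), and in cotyledon for AT2G43600 (0.0307). With the replicate block in place of the dye term 32, 29 and 24 relatives were called in petal, cotyledon and root, against 30, 29 and 28. Under the block 8 calls of named relatives were lost: AT1G77700 in cotyledon (-0.53, limma adjusted p = 0.0631), AT1G73620 (0.67, 0.0566), AT5G66590 (0.74, 0.0754), PDF1.2b (1.33, 0.0523) and KIN2 (-0.70, 0.0707) in root, petal minus cotyledon in AT5G66590 (-1.23, 0.0534), and THI2.1 in petal minus root (-1.74, 0.120) and cotyledon minus root (-1.82, 0.117). Values near 0 turned sign: the dye term of PR-1-LIKE (0.00136 with centring on tested probes, -0.17 to 0.0258 with 1 array left out), AT1G70250 in petal (0.055) and PDF1.2b in cotyledon (0.0376) with the overall median, PDF1.2b also without cotyledon replicate 1 (-0.52 to 0.54 with 1 array left out), AT2G43600 in petal (-0.00272 with centring on tested probes, -0.53 to 1.02 with 1 array left out, below 0 without petal replicate 3 or 4) and EIN3 in root (-0.00702, centring on tested probes). The cause was not tested.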
